A study of Mus musculus with 6 samples.

Results

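Levels of 36 genes for the non-collagen glycoproteins and proteoglycans of the extracellular matrix were measured in whole mouse kidney. They were chosen by gene symbol from the 17933 genes of the deposited table, and all 36 symbols were found there. The choice used no measured value of its own, but it was made with earlier results of these data known. RNA came from kidneys of 3 stone and 3 control samples, all from male wild-type C57BL/6 mice aged 6 to 8 weeks at treatment. Stone mice received glyoxylic acid, an oxalate precursor, at 120 mg/kg into the peritoneum daily for 12 days, which is used to form calcium oxalate crystals in the kidney. Control mice received the same volume of saline. Whether each sample is a separate mouse is not spelled out in the labels, so the p-values measure only how far these samples spread, which can be technical.

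The matrix between cells is built from collagens and laminins together with the glycoproteins and proteoglycans of these genes. Fibronectin is laid down early and serves as a template for other fibres, fibrillins and elastin form elastic fibres, and small leucine-rich proteoglycans bind collagen fibrils and some growth factors. Perlecan, agrin and the nidogens belong to basement membranes, which surround every tubule and the glomerular capillaries. Matricellular proteins such as SPARC, tenascin-C and the thrombospondins act on cells more than they bear load. Some, tenascin-C among them, are low in healthy adult kidney and rise when tissue is remodelled.

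Expression was given as FPKM, fragments scaled by gene length and library total, so levels may be compared between genes. Fold changes are differences on the log2(FPKM + 1) scale, on which changes of genes at low FPKM come out too small, and limma was run across the 12319 genes that averaged 1 FPKM or more in the 6 samples. FPKM sums ran from 609705 to 613885 in stone samples and from 711768 to 758514 in control samples. The proximal tubule marker Kap alone was at 7250 to 13769 FPKM in stone samples and 144880 to 175599 FPKM in control samples. Its mean differed by more than the mean sums did. The kidney markers Umod, Slc34a1, Slc12a3 and Aqp2 were above 0 in every sample. Over all tested genes the median log2 fold change came to 0.21 as deposited, 0.01 once scaled by median of ratios, and 0.45 once FPKM sums were made equal, so each matrix gene is to be read against that shift. Scaling to equal sums leans largely on Kap and moves other genes up in stone samples, so calls gained there carry this limit. Adipocyte transcripts set 2 samples apart. Adipoq, the adiponectin gene, was at 22.3 FPKM in stone sample 3 and 16.9 FPKM in control sample 2, and between 0 and 0.07 FPKM in the other 4 samples.

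Transcripts of most matrix genes were more abundant in stone kidneys. Of the 36 genes, 31 reached the level for testing, 25 of them rose, 1 fell and 5 did not pass (limma, adjusted p under 0.05). Over all tested genes 43.5% rose and 13.9% fell. On median-of-ratios values 23 members rose and 1 fell, against 23.9% and 24.9% of all tested genes. With equal FPKM sums 30 rose and Fmod did not pass, where 68.5% of all tested genes rose and 6.47% fell. The 31 tested members had a median log2 fold change of 0.95 as deposited, of 0.83 on median-of-ratios values, and of 1.14 with equal sums. Without the 2 samples with adipocyte transcripts, which leaves 2 against 2, 19 members rose and 1 fell. Of all 12319 tested genes 29.0% rose and 1246 fell there. The samples left out were control sample 2, the lowest control sample for 26 of the 31 members, and stone sample 3, the highest stone sample for 14. Calls lost there thus cannot be tied to adipocyte transcripts. All counts of calls describe the genes that passed the filter. The control mean of 8 of the 31 lay under 1 FPKM, so they passed through the stone samples alone, and of the other 23 members 18 rose and 1 fell. These 8 were Fbn1, Mfap4, Fbln2, Lum, Tnc, Thbs2, Thbs3 and Postn. Counts by role group are to be read against the same shares of all tested genes.

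In 30 of the 36 genes all 3 stone samples lay above all 3 control samples, in 1 gene all lay below, and in 5 the groups overlapped. Among the 31 tested members 26 had every stone sample above, against 49.8% of all tested genes, and 1 had every stone sample below, against 16.5%. In whole kidney RNA, more cells of a type and more RNA per cell cannot be told apart.

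**Figure D1:**
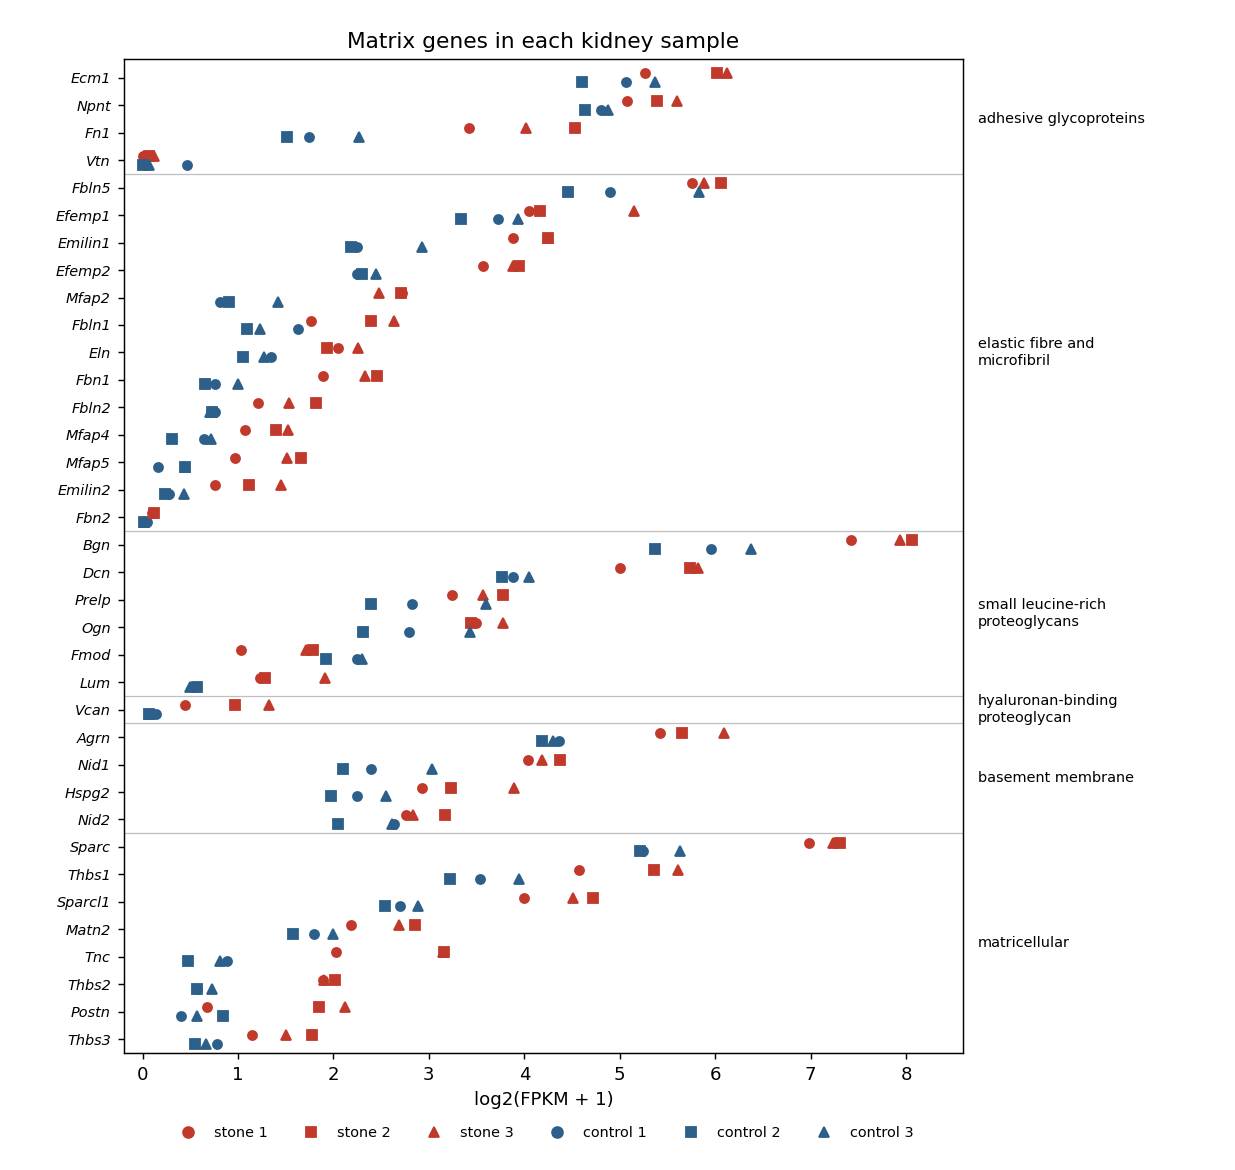
Level of each of the 36 matrix genes on the log2(FPKM + 1) scale, 1 point per sample, with stone samples in red above control samples in blue and genes grouped by role. Bgn and Sparc stand farthest to the right, Fmod is the gene whose red points all lie left of the blue ones, and the circle of stone sample 1 is usually the leftmost red point.

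Promoters of 4 genes are printed to show the sequence next to which the most abundant members (Bgn and Sparc), a matricellular gene with one of the largest rises (Tnc) and the gene that fell (Fmod) begin. Each line gives the 250 bases before the start of the gene, 5′ to 3′ on the strand of the gene, from RefSeq on GRCm38.p6. Capitals mark a GC box (GGGCGG) or a TATA box (TATAAA) on either strand.
Bgn, chrX:73483351-73483600, plus strand: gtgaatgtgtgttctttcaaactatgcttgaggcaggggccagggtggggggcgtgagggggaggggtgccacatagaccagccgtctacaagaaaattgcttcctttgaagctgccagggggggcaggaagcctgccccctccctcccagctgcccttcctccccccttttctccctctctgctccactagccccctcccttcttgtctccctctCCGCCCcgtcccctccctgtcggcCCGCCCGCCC
Sparc, chr11:55420081-55420330, minus strand: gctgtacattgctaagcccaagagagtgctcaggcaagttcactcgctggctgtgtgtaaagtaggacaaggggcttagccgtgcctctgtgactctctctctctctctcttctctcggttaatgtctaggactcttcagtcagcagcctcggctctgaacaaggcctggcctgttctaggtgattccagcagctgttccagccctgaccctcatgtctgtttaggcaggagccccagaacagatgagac
Tnc, chr4:64047016-64047265, minus strand: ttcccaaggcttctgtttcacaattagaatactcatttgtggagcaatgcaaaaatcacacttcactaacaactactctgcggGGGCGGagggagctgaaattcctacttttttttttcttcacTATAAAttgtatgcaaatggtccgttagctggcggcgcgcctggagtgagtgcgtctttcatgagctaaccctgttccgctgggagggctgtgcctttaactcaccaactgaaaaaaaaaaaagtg
Fmod, chr1:134037004-134037253, plus strand: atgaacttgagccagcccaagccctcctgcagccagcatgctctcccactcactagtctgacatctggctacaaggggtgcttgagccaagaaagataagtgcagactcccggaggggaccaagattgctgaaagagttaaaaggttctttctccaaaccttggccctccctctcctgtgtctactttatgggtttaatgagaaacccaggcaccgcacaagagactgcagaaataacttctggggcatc

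The Bgn window held 3 GC boxes in its last 34 bases, of which the last pair overlap. The Tnc window, the first of 2 for that gene, held a GC box beginning 167 bases before the start and a TATA box beginning 126 bases before it. The Sparc and Fmod windows held none of the 5 motifs searched on both strands, namely the GC box (GGGCGG), the TATA box (TATAAA), the CCAAT box, the AP-1 element (TGANTCA) and the TEAD element (GGAATG). Such windows could be read for 25 of the 36 members, with 35 start sites in all. A GC box was found in 21 of these 35 windows (60.0%) and in 32.7% of all 32851 windows of the same length. TATAAA was found in 7 of 35 (20.0%, against 12.4%), CCAAT in 7 of 35 (20.0%, against 33.8%), GGAATG in 5 of 35 (14.3%, against 12.6%) and TGANTCA in 2 of 35 (5.71%, against 6.75%). A match is a description of letters and does not show that a factor binds there.

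Of the adhesive and other secreted glycoproteins, 3 of 4 were tested and all 3 rose, 2 of them also on median-of-ratios values. Fn1, the fibronectin gene at chr1:71585473-71653280 (GRCm38.p6), had the largest log2 fold change of the 31 tested members as deposited. Tnc was ahead of it with a pseudocount of 0.1 (3.00, against 2.49 for Fn1) and without control sample 1 (2.13, against 2.10 for Fn1). Fn1 measured 9.67, 22.1 and 15.2 FPKM in stone samples 1 to 3, against 2.34, 1.85 and 3.82 FPKM in control samples 1 to 3. The lowest stone value was more than any control value, and stone sample 1 was the lowest of its group. Fn1 averaged 15.7 ± 6.22 FPKM in stone kidneys and 2.67 ± 1.03 FPKM in control kidneys (SD, n = 3 each), a log2 fold change of 2.15 ± 0.299 (SE; limma, adjusted p = 0.00107).

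Npnt, which encodes nephronectin, an integrin ligand needed for kidney development, had 32.9, 41 and 47.6 FPKM in stone samples 1 to 3, against 27, 23.9 and 28.3 FPKM in control samples 1 to 3. The groups did not overlap but the step was small, with a log2 fold change of 0.59 (limma, adjusted p = 0.00853) and 0.36 on median-of-ratios values (limma, adjusted p = 0.037). Ecm1, the gene of extracellular matrix protein 1, had 37.6, 64 and 68.6 FPKM in stone samples 1 to 3, against 32.5, 23.4 and 40.4 FPKM in control samples 1 to 3. Stone sample 1 lay below control sample 3, so the groups overlapped. Its log2 fold change of 0.79 passed as deposited (limma, adjusted p = 0.0363) and did not pass on median-of-ratios values (limma, adjusted p = 0.0945), with no filter, without stone sample 2 or 3 or control sample 1 or 2, or without the 2 samples with adipocyte transcripts (limma, adjusted p = 0.23). Vtn, the gene of vitronectin, a plasma protein made mainly by liver, was between 0 and 0.09 FPKM in stone samples and between 0 and 0.38 FPKM in control samples, too low to be tested. A listed 0 is given as deposited.

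Elastic fibre and microfibril genes were mostly low in control kidneys and higher in stone kidneys. Of 13 members 10 were tested, 8 rose as deposited, and likewise on median-of-ratios values, and 10 with equal FPKM sums. Over all tested genes 43.5%, 23.9% and 68.5% rose, in the same order. Fbn1, Mfap4 and Fbln2 averaged 0.753, 0.48 and 0.66 FPKM in control kidneys, so they passed the filter through the stone samples alone. Emilin1, whose protein sits at the interface of elastin and microfibrils, had 13.8, 17.9 and 18 FPKM in stone samples 1 to 3, against 3.75, 3.56 and 6.61 FPKM in control samples 1 to 3. All stone values were more than 2 times the highest control value, and its log2 fold change was 1.67 ± 0.207 (SE; limma, adjusted p = 0.000655). Fbn1, the gene of fibrillin-1, the main microfibril protein, averaged 3.75 ± 0.918 FPKM in stone kidneys and 0.753 ± 0.222 FPKM in control kidneys (SD, n = 3 each), a log2 fold change of 1.42 (limma, adjusted p = 0.000624). Its paralog Fbn2 was between 0.07 and 0.09 FPKM in stone samples and between 0.01 and 0.03 FPKM in control samples, so that fibrillin transcripts were nearly all Fbn1.

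Of the assembly proteins of elastic fibres Efemp2 passed and Fbln5 did not, and the difference between these genes was not tested. Efemp2, which encodes fibulin-4 and is needed for elastic fibre assembly, had 10.9, 14.4 and 13.7 FPKM in stone samples 1 to 3, against 3.75, 3.92 and 4.44 FPKM in control samples 1 to 3. These groups were tight and far apart, with a log2 fold change of 1.47 ± 0.115 (SE; limma, adjusted p = 0.000105). Fbln5, which encodes fibulin-5, another assembly protein, was the most abundant gene of the group at 53.2, 66 and 58 FPKM in stone samples 1 to 3, against 28.9, 20.9 and 56 FPKM in control samples 1 to 3. Control sample 3 reached the stone level, the groups overlapped, and Fbln5 did not pass with a log2 fold change of 0.84 (limma, adjusted p = 0.0531). Without control sample 3 it passed at 1.23 (limma, adjusted p = 0.00183), and it also passed with equal FPKM sums (limma, adjusted p = 0.016).

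Efemp1, the gene of fibulin-3, had 15.6, 16.9 and 34.5 FPKM in stone samples 1 to 3, against 12.2, 9.08 and 14.3 FPKM in control samples 1 to 3. Stone sample 3, which carried adipocyte transcripts, was about 2 times as high as the other stone samples, and those lay close above control sample 3. Control sample 2, which carried adipocyte transcripts too, was the lowest of all samples at 9.08 FPKM. A link between Efemp1 and adipocyte transcripts was not tested. Efemp1 did not pass at a log2 fold change of 0.79 (limma, adjusted p = 0.0531). It passed without stone sample 1 at 0.99 (limma, adjusted p = 0.0312) and with equal FPKM sums (limma, adjusted p = 0.014). Without both samples that carried adipocyte transcripts its log2 fold change was 0.28.

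Eln, the elastin gene itself, averaged 3.24 ± 0.491 FPKM in stone kidneys and 1.34 ± 0.237 FPKM in control kidneys (SD, n = 3 each), a log2 fold change of 0.85 (limma, adjusted p = 0.00156). Mfap2, which encodes a microfibril-associated glycoprotein, averaged 5.23 ± 0.581 FPKM in stone kidneys and 1.1 ± 0.504 FPKM in control kidneys (SD, n = 3 each) and changed more, by 1.59 (limma, adjusted p = 0.0004). Mfap4, Fbln1 and Fbln2, 3 other genes of elastic fibre and fibulin proteins, rose by 0.78, 0.94 and 0.79 log2 units (limma, adjusted p = 0.00807, 0.0137 and 0.00601). The Fbln1 call was lost without control sample 2, and the Mfap4 and Fbln1 calls without the 2 samples with adipocyte transcripts. Mfap5 averaged 1.65 ± 0.626 FPKM in stone kidneys and 0.28 ± 0.139 FPKM in control kidneys and Emilin2 1.2 ± 0.526 FPKM in stone kidneys and 0.247 ± 0.0907 FPKM in control kidneys (SD, n = 3 each), under the level for testing. In a fit with no filter, 27 of the 36 members and 33.3% of 17587 genes rose, and there Mfap5, Emilin2, Fbn2 and Vcan were called higher (limma, adjusted p = 0.00715, 0.0125, 0.0394 and 0.0214) and Vtn did not pass (limma, adjusted p = 0.493).

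**Figure D2:**
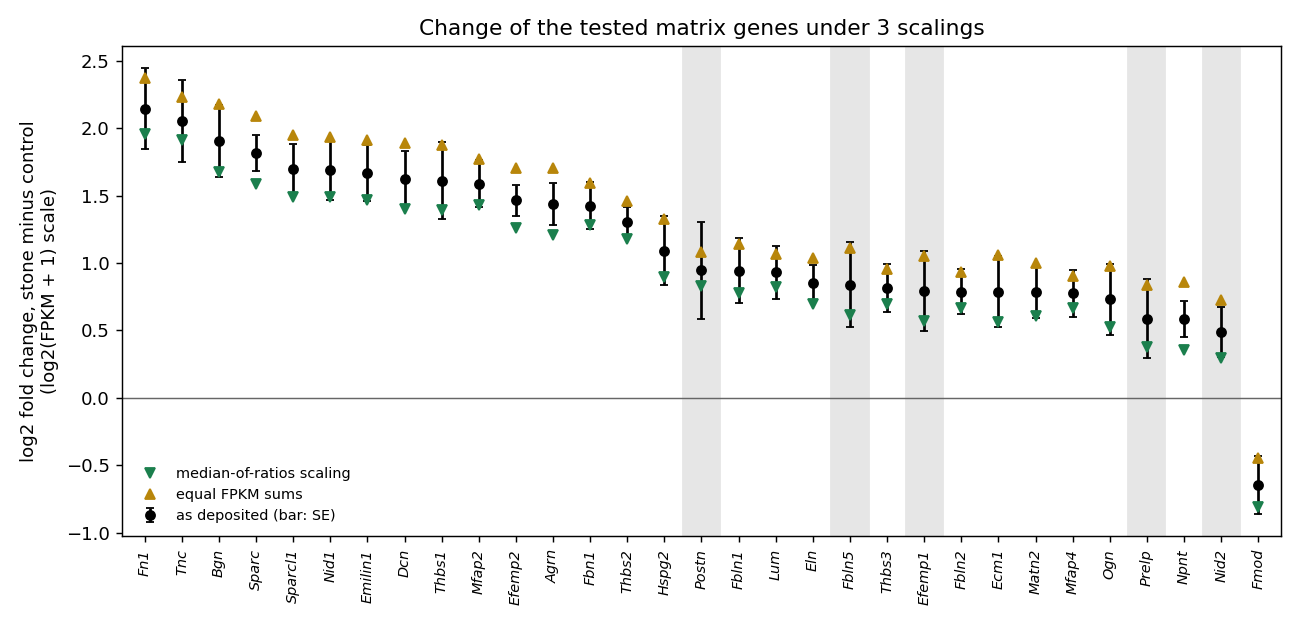
Log2 fold change of the 31 tested genes, stone minus control, on the log2(FPKM + 1) scale, as deposited (black, bar SE, n = 3 each) and under both other scalings (green and yellow), with the 5 genes that did not pass as deposited shaded. Fn1 stands highest at 2.15 and Fmod is the gene below 0, at -0.65.

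The small leucine-rich proteoglycans split. As deposited 4 of 6 rose, 1 fell and 1 did not pass, and on median-of-ratios values 3 rose and 1 fell. Bgn, the biglycan gene at chrX:73483601-73495936, was the most abundant of the 36 genes. It measured 171, 267 and 243 FPKM in stone samples 1 to 3, against 61, 40.3 and 82.3 FPKM in control samples 1 to 3, with the lowest stone sample more than 2 times as high as the highest control sample. Its log2 fold change was 1.91 ± 0.267 (SE; limma, adjusted p = 0.00109). Dcn, the gene of decorin, the closest relative of biglycan, had 31.1, 52.4 and 55.4 FPKM in stone samples 1 to 3, against 13.7, 12.6 and 15.5 FPKM in control samples 1 to 3, a log2 fold change of 1.62 (limma, adjusted p = 0.000748). Lum, the lumican gene, was far lower at 1.85 ± 0.798 FPKM in stone kidneys and 0.457 ± 0.0416 FPKM in control kidneys (SD, n = 3 each), and it rose by 0.93 (limma, adjusted p = 0.00604).

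Fmod, which encodes fibromodulin, a collagen-binding relative of lumican, was the member that fell. It had 1.04, 2.44 and 2.28 FPKM in stone samples 1 to 3, against 3.73, 2.8 and 3.91 FPKM in control samples 1 to 3. All stone values were below all control values, and stone sample 1 was the lowest. The log2 fold change was -0.65 ± 0.216 (SE; limma, adjusted p = 0.036), and -0.81 on median-of-ratios values (limma, adjusted p = 0.0126). With equal FPKM sums it was -0.45 and did not pass (limma, adjusted p = 0.104), and the call was also lost with no filter and without control sample 1 or 3.

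Ogn and Prelp, the genes of osteoglycin (mimecan) and of the heparin-binding protein PRELP, had smaller fold changes than Bgn, Dcn and Lum. Ogn had 10.2, 9.88 and 12.7 FPKM in stone samples 1 to 3, against 5.91, 3.94 and 9.75 FPKM in control samples 1 to 3. Its lowest stone value lay just above control sample 3, and its log2 fold change of 0.73 (limma, adjusted p = 0.0458) did not pass on median-of-ratios values (limma, adjusted p = 0.121), with no filter, without any 1 sample other than control sample 3, or without the 2 samples with adipocyte transcripts (limma, adjusted p = 0.225). Prelp had 8.48, 12.7 and 10.8 FPKM in stone samples 1 to 3, against 6.07, 4.27 and 11.1 FPKM in control samples 1 to 3, with control sample 3 inside the stone range, and did not pass at 0.59 (limma, adjusted p = 0.123). Without control sample 3 Prelp passed at 0.92 (limma, adjusted p = 0.00986), and it passed with equal FPKM sums (limma, adjusted p = 0.0368).

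Neighbouring genes of this family did not all have the same call. Dcn (chr10:97479500-97518163) and Lum (chr10:97565501-97572703) lie side by side and both rose. Prelp (chr1:133910304-133930102) and Fmod (chr1:134037254-134048280) are neighbours too, and there Fmod fell while Prelp did not pass. Vcan, which encodes versican, the large proteoglycan that binds hyaluronan, had 0.36, 0.95 and 1.5 FPKM in stone samples 1 to 3, against 0.1, 0.05 and 0.05 FPKM in control samples 1 to 3. Its mean was under the level for testing, and the stone values were all above the control values.

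Of the 4 basement membrane members 3 rose, under median-of-ratios scaling as well. Agrn, the gene of agrin, a heparan sulfate proteoglycan of the glomerular basement membrane, was the most abundant at 41.9, 49.2 and 67.1 FPKM in stone samples 1 to 3, against 19.6, 17.2 and 18.6 FPKM in control samples 1 to 3. Control samples lay within a narrow range, and the log2 fold change was 1.44 ± 0.158 (SE; limma, adjusted p = 0.0004). Hspg2, which encodes perlecan, had 6.63, 8.39 and 13.9 FPKM in stone samples 1 to 3, against 3.76, 2.93 and 4.88 FPKM in control samples 1 to 3. Stone sample 3 was highest and lay apart from the other stone samples, and the log2 fold change was 1.09 (limma, adjusted p = 0.00913).

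The nidogens, a pair of related proteins that link laminin to collagen IV, had different calls. Nid1 had 15.5, 19.8 and 17.1 FPKM in stone samples 1 to 3, against 4.25, 3.28 and 7.17 FPKM in control samples 1 to 3, a log2 fold change of 1.69 (limma, adjusted p = 0.000877). Nid2 had 5.77, 7.99 and 6.11 FPKM in stone samples 1 to 3, against 5.2, 3.14 and 5.1 FPKM in control samples 1 to 3. Its groups did not overlap, but the log2 fold change of 0.49 ± 0.183 (SE) did not pass as deposited (limma, adjusted p = 0.0536) or on median-of-ratios values (limma, adjusted p = 0.201), and passed with equal FPKM sums (limma, adjusted p = 0.00951). Exons of Nid2 share 437 bases with Rtraf on the opposite strand, and no source used here tells whether counting went by strand, which leaves its level uncertain. The same holds for Thbs3 with Mtx1 (318 bases), Efemp2 with Mus81 (173 bases) and Mfap4 with Mapk7 (89 bases). Other members, Fn1, Fbn1, Eln and Tnc among them, overlap antisense or other opposite-strand genes that the table does not hold.

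Of the 8 matricellular genes all were tested, and 7 rose as deposited and on median-of-ratios values. Over all tested genes 43.5% and 23.9% rose. Tnc, Thbs2, Thbs3 and Postn averaged 0.663, 0.547, 0.587 and 0.53 FPKM in control kidneys, so they passed the filter through the stone samples alone. Sparc, which encodes osteonectin, a collagen-binding protein, had the smallest adjusted p of the 31 tested members. It measured 126, 157 and 149 FPKM in stone samples 1 to 3, against 36.8, 36 and 48.6 FPKM in control samples 1 to 3. Samples of each group lay close together, and the log2 fold change was 1.81 ± 0.134 (SE; limma, adjusted p = 8.30e-05). Its relative Sparcl1, also called hevin, had 14.9, 25.3 and 21.8 FPKM in stone samples 1 to 3, against 5.47, 4.81 and 6.39 FPKM in control samples 1 to 3, a log2 fold change of 1.70 (limma, adjusted p = 0.000391).

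Tnc, the tenascin-C gene, was under 1 FPKM in every control sample. It had 3.08, 7.95 and 7.85 FPKM in stone samples 1 to 3, against 0.84, 0.39 and 0.76 FPKM in control samples 1 to 3. Stone sample 1 was less than 0.5 times as high as the other stone samples, yet above every control sample, and the log2 fold change was 2.06 ± 0.307 (SE; limma, adjusted p = 0.00142). Thbs1, whose product thrombospondin-1 can activate latent TGF-beta, had 22.9, 39.9 and 47.9 FPKM in stone samples 1 to 3, against 10.6, 8.36 and 14.4 FPKM in control samples 1 to 3, a log2 fold change of 1.61 (limma, adjusted p = 0.00285). Its relatives Thbs2 and Thbs3 were lower. Thbs2 averaged 2.83 ± 0.186 FPKM in stone kidneys and 0.547 ± 0.0981 FPKM in control kidneys (SD, n = 3 each) and Thbs3 averaged 1.83 ± 0.605 FPKM in stone kidneys and 0.587 ± 0.13 FPKM in control kidneys (SD, n = 3 each), and they rose by 1.31 and 0.82 (limma, adjusted p = 0.000139 and 0.00711).

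Matn2, which encodes matrilin-2, an adaptor of matrix filaments, averaged 5.07 ± 1.38 FPKM in stone kidneys and 2.48 ± 0.495 FPKM in control kidneys (SD, n = 3 each) and rose by 0.78 (limma, adjusted p = 0.0107). The Matn2 and Thbs3 calls were lost without the 2 samples with adipocyte transcripts. Postn, the gene of periostin, a protein of remodelling connective tissue, had 0.6, 2.61 and 3.34 FPKM in stone samples 1 to 3, against 0.32, 0.79 and 0.48 FPKM in control samples 1 to 3. Stone samples 2 and 3 were above every control sample and stone sample 1 was within the control range. Its log2 fold change of 0.95 did not pass (limma, adjusted p = 0.0554). Without stone sample 1 it passed at 1.38 (limma, adjusted p = 0.00124), and with equal FPKM sums as well (limma, adjusted p = 0.0276).

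The make-up of the matrix transcript sum also differed. The FPKM of the 36 genes added up to 659, 944 and 954 in stone samples 1 to 3, against 299, 236 and 395 in control samples 1 to 3, a mean 2.75 times as high in stone kidneys. The groups did not overlap, with p = 0.1 in an exact permutation test (two-sided), which is the smallest that 3 against 3 samples can give. Small leucine-rich proteoglycans made up 34.9% ± 1.49 of the sum in stone kidneys and 29.6% ± 2.06 in control kidneys (SD, n = 3 each), and matricellular genes 25.9% ± 0.654 and 20.3% ± 2.00. Adhesive and other secreted glycoproteins made up 13.1% ± 0.869 in stone kidneys and 20.0% ± 1.42 in control kidneys, and elastic fibre genes 15.8% ± 1.04 and 19.7% ± 2.44. For each of these 4 groups the samples did not overlap (p = 0.1, exact permutation test, two-sided). The basement membrane share was 10.2% ± 1.00 in stone kidneys and 10.4% ± 1.20 in control kidneys, with overlapping samples (p = 0.5, exact permutation test, two-sided). Shares within a sample do not move with the scaling of samples. Bgn and Sparc alone held 26.6% ± 1.5 and 17.1% ± 1.75 of the sum in stone kidneys, against 19.4% ± 2.06 and 13.3% ± 1.70 in control kidneys (SD, n = 3 each). The Bgn share rose by more than that of its group, so the other small leucine-rich proteoglycans together held a smaller share in stone kidneys. Fbln5 held 7.05% ± 0.991 in stone kidneys and 10.9% ± 2.87 in control kidneys, with 14.2% in control sample 3. That difference made up nearly all of the elastic fibre difference. In the adhesive group Ecm1 and Npnt held 6.56% ± 0.77 and 4.77% ± 0.37 in stone kidneys, against 10.3% ± 0.497 and 8.78% ± 1.5 in control kidneys. Fn1 did not share in this, as its mean was 5.86 times as high in stone kidneys, against 2.75 times for the sum.

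**Figure D3:**
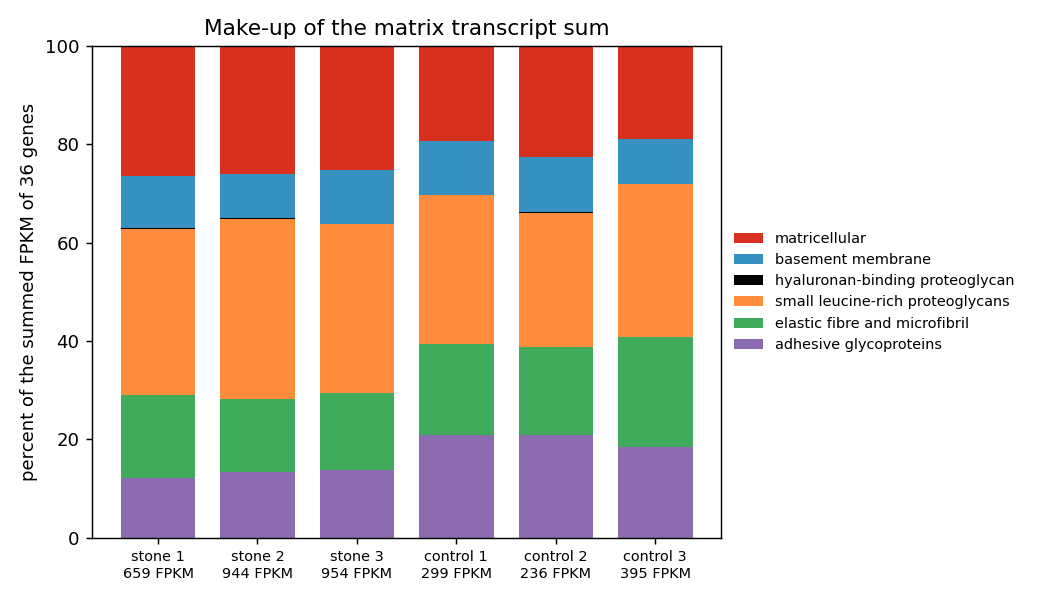
Share of each role group in the summed FPKM of the 36 genes, as stacked bars in percent, with stone samples to the left of control samples and the sum under each bar. The orange (small leucine-rich proteoglycan) and red (matricellular) parts are larger in stone samples, and the purple (adhesive) and green (elastic fibre) parts are smaller.

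Ratios between relatives within a sample, which are likewise free of scaling, were given for 8 pairs. Both genes of a pair averaged at least 1 FPKM over the 6 samples and were above 0 in every sample. Lum, Fbln2 and Thbs2 averaged 0.457, 0.66 and 0.547 FPKM in control kidneys, so their pairs met this level through the stone samples alone. Control ratios of Fmod/Lum thus divide by Lum values of 0.41 to 0.49 FPKM. The groups were apart for 2 pairs and overlapped for 6. The ratio Fmod/Lum was 0.776, 1.69 and 0.823 in stone samples 1 to 3, against 7.94, 5.71 and 9.54 in control samples 1 to 3. Fibromodulin transcripts thus outnumbered lumican transcripts by length-normalised level in every control sample, and in stone samples they did so in sample 2 alone. The ratio Nid2/Nid1 was 0.373, 0.404 and 0.356 in stone samples 1 to 3, against 1.22, 0.957 and 0.711 in control samples 1 to 3, lower in every stone sample. On the log2 scale these ratios differed by -2.88 and -1.32, stone minus control (p = 0.1 each, exact permutation test, two-sided; adjusted over the 8 pairs 0.32).

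Other pairs kept overlapping ratios. Sparc/Sparcl1 was 8.43, 6.23 and 6.84 in stone samples 1 to 3, against 6.74, 7.49 and 7.61 in control samples 1 to 3. Bgn/Dcn was 5.49, 5.1 and 4.39 in stone samples 1 to 3, against 4.45, 3.21 and 5.3 in control samples 1 to 3. Stone and control values lay in each other's range for both, with differences of -0.03 and 0.23 on the log2 scale (p = 1.0 and 0.5, exact permutation test, two-sided). Agrn/Hspg2, Efemp2/Efemp1, Fbln2/Fbln5 and Thbs2/Thbs1 differed by 0.21, 0.84, 0.62 and 0.68 (p = 0.6, 0.2, 0.2 and 0.2, exact permutation test, two-sided). With 3 against 3 samples, such values do not show that a ratio was the same.

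**Figure D4:**
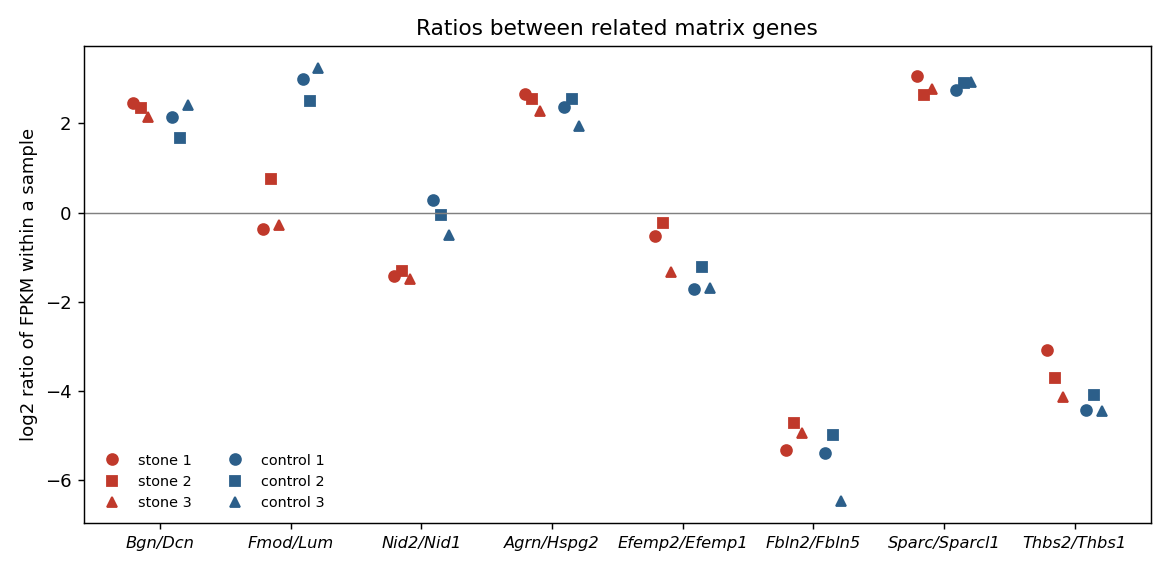
Log2 ratio of FPKM between related matrix genes within each sample, with stone samples in red to the left of control samples in blue. Of the 8 pairs, Fmod/Lum and Nid2/Nid1 have all red points below all blue points.

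Matrix genes also varied together within each group. Stone sample 1 was the lowest of the stone samples for 28 of the 31 tested members, against 50.0% of all tested genes, and control sample 3 was the highest of the control samples for 22 of 31, against 44.0%. Control sample 2 was the lowest for 26 of 31, against 44.5%. On median-of-ratios values stone sample 1 was lowest for 27 of 31 (35.7% of all tested genes), control sample 3 highest for 22 (36.9%) and control sample 2 lowest for 24 (36.1%).

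Markers of several cell types were also higher in stone kidneys, to be read against the 43.5% of all tested genes that rose as deposited, 23.9% on median-of-ratios values and 68.5% with equal sums. Of 9 fibroblast markers 6 were tested and all 6 rose, 5 of them on median-of-ratios values, and their summed FPKM was 44.3, 60.4 and 59.4 in stone samples 1 to 3, against 23.3, 16.1 and 28.1 in control samples 1 to 3. Pdgfrb, a receptor that defines fibroblasts and pericytes, had 13.7, 17.9 and 16.9 FPKM in stone samples and 4.73, 3.85 and 7.43 FPKM in control samples. Thy1 overlapped between groups and did not pass on median-of-ratios values (limma, adjusted p = 0.0608). Its call was also lost with no filter, without stone sample 2 or 3, and without any 1 control sample. Of the untested markers, Scara5 averaged 0.473 FPKM in stone and 0.657 FPKM in control kidneys, with all stone samples below. Gli1 and Fap had all stone samples above. Of 10 markers of myofibroblasts and smooth muscle 8 were tested and 5 rose, 5 on median-of-ratios values and 8 with equal sums, with sums of 169 to 254 FPKM in stone samples and 72.8 to 107.6 FPKM in control samples. Of 10 endothelial markers 7 rose, 7 on median-of-ratios values and 10 with equal sums, with sums of 195 to 281 FPKM in stone samples and 106 to 178 FPKM in control samples.

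Of 10 macrophage markers 9 rose, with sums of 233 to 569 FPKM in stone samples and 76.3 to 83.7 FPKM in control samples. Csf1r did not pass, at a mean of 20.3 FPKM in stone and 20.2 FPKM in control kidneys. Lyz2, a large part of the stone sums, averaged 160 FPKM in stone and 16.6 FPKM in control kidneys. Adgre1, Cx3cr1, Ccr2 and Mrc1 averaged 0.93, 0.99, 0.8 and 0.5 FPKM in control kidneys, so they passed the filter through the stone samples alone. Of 10 proximal tubule markers 8 fell and 2 did not pass, where 13.9% of all tested genes fell. On median-of-ratios values 9 of them fell (24.9% of all tested genes), and with equal sums 6 (6.47%). Of 8 platelet markers 2 were tested and Pf4, the platelet factor 4 gene, rose, with 6.54 ± 1.77 FPKM in stone kidneys and 1.44 ± 0.0954 FPKM in control kidneys (SD, n = 3 each; limma, adjusted p = 0.000413). The other 7 overlapped between groups, and the list summed to 6.58 to 10.65 FPKM in stone samples and 3.68 to 5.67 FPKM in control samples. Of the podocyte markers, 6 rose, 5 of them on median-of-ratios values, and they summed to 92.8, 84.8 and 79.7 FPKM in stone samples 1 to 3, against 42.5, 50.5 and 54.6 FPKM in control samples 1 to 3. In that sum stone sample 1 was the highest of its group, unlike for most matrix genes. Sums of the 7 adipocyte markers were 20.8 to 401.6 FPKM in stone samples and 42.7 to 241.2 FPKM in control samples, and those of 7 hepatocyte markers 183 to 362 FPKM and 299 to 322 FPKM. The part of any of these cells in the rise of matrix genes was not tested.

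**Figure D5:**
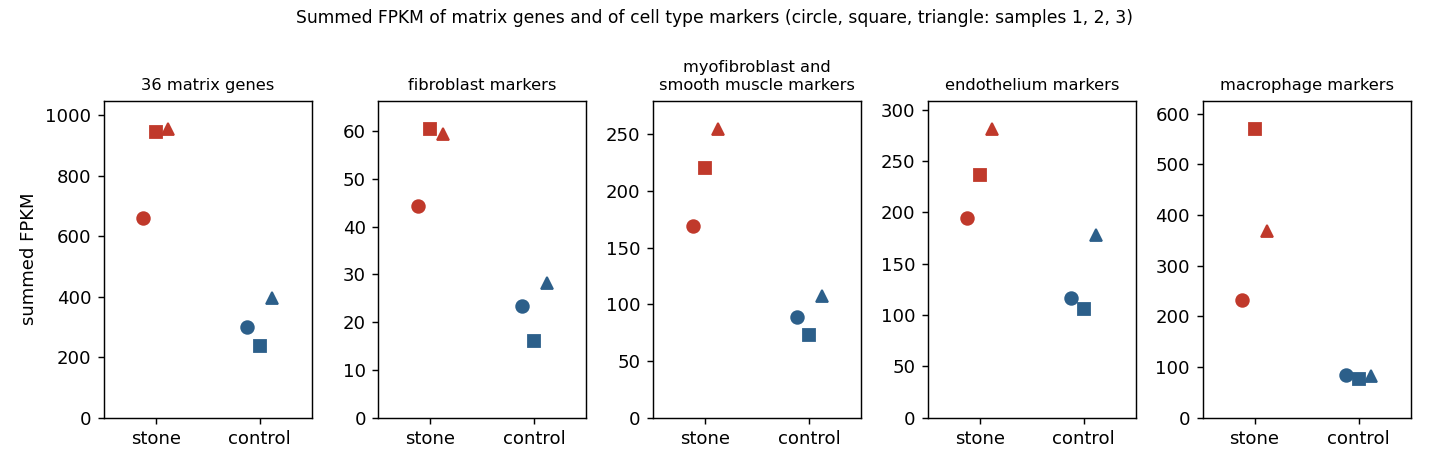
Summed FPKM of the 36 matrix genes and of 4 lists of cell type markers, 1 point per sample, stone left of control. In each panel stone sample 1 (circle) is the lowest of the stone samples and all stone samples lie above all control samples.

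Among 75 further genes listed as related, 42 were tested, 28 rose, 3 fell and 11 did not pass. This is to be read against 43.5% higher and 13.9% lower among all tested genes. Lox, Ltbp2, Ccn4, Papln, Tnxb and Svep1, which rose, averaged 0.443, 0.107, 0.44, 0.79, 0.91 and 0.893 FPKM in control kidneys. They thus passed the filter through the stone samples alone. The same holds for Vwf and Abi3bp, which were tested and not called. The 42 tested related genes had a median log2 fold change of 0.75. On median-of-ratios values 24 rose and 5 fell, against 23.9% and 24.9%. Among the 42 were 10 basement membrane genes, of which 5 rose and 1 fell as deposited. On median-of-ratios values 5 of these 10 rose and 3 fell. On the log2(FPKM + 1) scale the 6 largest rises were in Spp1, Mgp, Lox, Tgfbi, Crispld2 and Spon1. Lox, which encodes the lysyl oxidase that crosslinks collagen and elastin, had 3.78, 7.95 and 6.84 FPKM in stone samples 1 to 3, against 0.55, 0.33 and 0.45 FPKM in control samples 1 to 3, a log2 fold change of 2.27 (limma, adjusted p = 0.000279). Tgfbi, the gene of a TGF-beta-induced adhesive protein, averaged 19.6 ± 2.59 FPKM in stone kidneys and 3.75 ± 0.811 FPKM in control kidneys (SD, n = 3 each), a log2 fold change of 2.12 (limma, adjusted p = 5.93e-05). Spp1 and Mgp, the genes of osteopontin and matrix Gla protein, which bind calcium crystals, rose by 3.81 and 2.69 (limma, adjusted p = 5.81e-06 and 3.56e-05). Crispld2 and Spon1 rose by 1.85 and 1.59 (limma, adjusted p = 0.000199 and 0.0222), and the Spon1 call was lost without control sample 2. This order depends on the pseudocount. With a pseudocount of 0.1 Ltbp2, the gene of a latent TGF-beta binding protein of elastic fibres, was at 3.49 and Ccn4 at 2.38, both above Tgfbi at 2.37. Ltbp2 had 1.49, 2.51 and 2.43 FPKM in stone samples 1 to 3, against 0.04, 0.21 and 0.07 FPKM in control samples 1 to 3, a log2 fold change of 1.49 at a pseudocount of 1 (limma, adjusted p = 0.000465).

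The 3 related genes that fell were Vwa1, Podn and Mfap3l. Vwa1, which encodes a perlecan-binding matrix protein, had 8.25, 8.58 and 9.04 FPKM in stone samples 1 to 3, against 45.8, 42.4 and 38 FPKM in control samples 1 to 3. Its groups were far apart, with a log2 fold change of -2.16 ± 0.0817 (SE; limma, adjusted p = 1.16e-05), a fall larger than that of Fmod. Podn, the gene of podocan, a small leucine-rich protein like fibromodulin, had 4.92, 6.5 and 11.5 FPKM in stone samples 1 to 3, against 14.7, 13.4 and 13.3 FPKM in control samples 1 to 3, a log2 fold change of -0.85 (limma, adjusted p = 0.0221). The Podn call was lost once FPKM sums were equal (limma, adjusted p = 0.06) and without stone sample 2 or any 1 control sample. Mfap3l averaged 25.1 ± 0.16 FPKM in stone kidneys and 38.9 ± 6.62 FPKM in control kidneys (SD, n = 3 each), a log2 fold change of -0.60 (limma, adjusted p = 0.00437), which was lost once FPKM sums were equal (limma, adjusted p = 0.0545). Mfap3l, and Mfap1a and Mfap3 among the genes that rose, share the Mfap symbol with members but need not encode matrix proteins.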

How the data were processed

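Whole kidney RNA of 3 stone and 3 control samples was measured by RNA-seq. Libraries kept strand by a dUTP step, per the labels' protocols. The submitters' processing notes name HISAT2 2.0.4 and the build GRCm38.p6. No source used here tells the counting program, its annotation or the total used as the divisor. The authors deposited FPKM per gene with 1 column per sample and 0 columns of other samples. FPKM hold no counts, so depth is unknown and no counting interval can be given. In 53 low genes whose values may stand for 1 fragment each, samples lay -0.034 to 0.053 log2 units from their common level, a spread kept small by how those genes were picked.

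Values were tested on log2(FPKM + 1) with limma 3.58.1 in R 4.3.3 (lmFit, eBayes with trend), two-sided, with Benjamini-Hochberg adjustment over the 12319 genes that averaged 1 FPKM or more and a threshold of 0.05. The script was tested on simulated data. Sums, shares and ratios were compared by exact permutation of samples. Alternatives were a pseudocount of 0.1, no filter, median-of-ratios scaling, equal FPKM sums, the replicate number as a block, and leaving out each sample. Leaving out the 2 samples with adipocyte transcripts was added after seeing the data. Positions are from the RefSeq annotation of GRCm38.p6, and gene overlaps from GENCODE M21.

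The members, the lists of related genes and markers, and the pairs were chosen with earlier results of these data known. Of 78 related genes 75 were found in the table, some by older symbols, and of the 86 marker entries all were found. A podocyte marker is not reported here. All members could be named, and per-sample values are given for the 3 most abundant members of each role, the largest rise and fall, and members whose call changed with scaling. A few others chosen after their values were seen, Efemp2, Tnc, Ltbp2, Ccn4 and the markers Adipoq, Pdgfrb and Pf4 among them, are shown as well.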

Additional observations from a re-analysis of the deposited data

How the results depend on the processing

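Higher calls among the 36 genes numbered 25 as deposited, 23 to 30 over the other scalings, pseudocount, filter and replicate block, and 22 to 27 without 1 sample each. The 1 lower call, Fmod, became 0 with no filter and with equal FPKM sums (limma, adjusted p = 0.0608 and 0.104), and 0 to 1 without 1 sample each. Over all tested genes, 5356 rose and 1711 fell as deposited, 2948 and 3064 on median-of-ratios values, 8440 and 797 once FPKM sums were equal. Of the related genes 3 fell as deposited, 5 on median-of-ratios values, 1 with equal sums. The median log2 fold change of the tested members was 0.95 and became 1.54 with a pseudocount of 0.1, which compresses low values less. The difference of the Sparc/Sparcl1 ratio, -0.03, ran from -0.1548 to 0.0637 without 1 sample each, and reversed to 0.0637 without stone sample 2 and to 0.0012 without control sample 3. No other result recomputed under these alternatives changed sign. Same-numbered stone and control samples did not deviate together (r of 0.0075, -0.22 and -0.0397 for numbers 1 to 3), and no stone sample correlated best with the control sample of its own number, so the numbers were not taken to pair samples. With the replicate block 28 members rose, Fbln5, Efemp1 and Postn among them (limma, adjusted p = 0.0481, 0.0126 and 0.0278), and 1 fell. Without both samples with adipocyte transcripts 19 rose and 1 fell.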
